A study of Mus musculus with 34 samples.

Results

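Reactive astrocyte genes were followed across the series. They are 10 genes, Gfap, Vim, Serpina3n, Lcn2, Osmr, Cd44, S1pr3, Steap4, Timp1 and Cp, taken by symbol from the 23951 genes listed for each library. All 10 were listed in every library, and all 10 are protein-coding genes in the mm9 annotation. The libraries were 20 from hippocampus, 1 per mouse, and 7 from GFAP+ nuclei of the cortex. Every mouse carried floxed Hdac1 alleles. In hippocampus, 4 mice carried Hdac1f/f alone and served as control, 5 also carried Nestin-Cre and are the Hdac1 cKO, 6 carried 5XFAD in place of Nestin-Cre and are called 5XFAD, and 5 carried Nestin-Cre together with 5XFAD and are called compound. The nuclei came from 3 control and 4 Hdac1 cKO mice. The mice were 13 months old, which the labels of the hippocampal control and Hdac1 cKO mice give as 13 to 14 months. In hippocampus 5XFAD therefore coincides with the age label, and also with a later block of sample numbers. Whatever differs between these blocks cannot be told apart from 5XFAD. Nestin-Cre acts in the neural lineage, so neurons and astrocytes lose Hdac1 while microglia do not, and the cKO is therefore not specific to astrocytes. In 5XFAD mice, a model of amyloid deposition, a Thy1 promoter drives the transgenes in neurons. HDAC1 is a histone deacetylase, and the study asked what its loss does to the ageing brain with and without amyloid.

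Astrocytes respond to injury, inflammation and amyloid plaques by enlarging, extending their intermediate filaments and switching on a shared set of genes. Part of that set encodes filament proteins, part secreted acute-phase proteins and protease inhibitors, and part cytokine and lipid receptors of the cell surface. Cytokines of the IL-6 family act on astrocytes through receptors that signal to the transcription factor STAT3. Not all of these genes are restricted to astrocytes, and Vim, Cd44, Timp1 and Cp are also made by vascular, meningeal, choroid plexus or immune cells.

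The stretches of promoter in which short motifs were searched are printed for the 4 members that rose in 5XFAD mice from a level measurable in both groups, and for Steap4, which has a STAT match but was hardly detected. Each runs from 120 bases before the annotated start site to 9 bases after it, 5′ to 3′ on the gene's strand, with the start site counted as 0. The sequences are those of RefSeq on GRCm38.p6, and capitals mark matches to any of the searched motifs on either strand.
Gfap, chr11:102897191-102897320, minus strand: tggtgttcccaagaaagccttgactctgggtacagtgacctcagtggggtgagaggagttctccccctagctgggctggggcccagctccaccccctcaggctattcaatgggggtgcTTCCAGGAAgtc
Vim, chr2:13574191-13574320, plus strand: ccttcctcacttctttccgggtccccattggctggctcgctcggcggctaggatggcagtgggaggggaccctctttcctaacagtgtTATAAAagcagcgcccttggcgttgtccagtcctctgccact
Serpina3n, chr12:104406588-104406717, plus strand: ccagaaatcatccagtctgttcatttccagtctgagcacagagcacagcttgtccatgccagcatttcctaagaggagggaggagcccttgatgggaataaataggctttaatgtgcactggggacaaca
Osmr, chr15:6874304-6874433, minus strand: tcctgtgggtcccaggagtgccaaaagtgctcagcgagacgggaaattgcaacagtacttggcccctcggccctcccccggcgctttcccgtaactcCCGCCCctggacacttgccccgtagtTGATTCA
Steap4, chr5:7960352-7960481, plus strand: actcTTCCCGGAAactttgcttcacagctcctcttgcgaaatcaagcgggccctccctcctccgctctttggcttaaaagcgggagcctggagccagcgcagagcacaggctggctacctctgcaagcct

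The searched window was wider, from 250 bases before the start site to 50 bases after it, and all 10 members had an entry. The palindromic STAT motif TTCNNNGAA was found in 2 members, Gfap and Steap4, and in 8.30% of 32851 mouse promoters. In Gfap it lay across the start site, from -2 to 6, and in Steap4 from -116 to -108. The AP-1 motif TGANTCA was found in Osmr and Cp, and in 7.81% of promoters. The GC box GGGCGG was found in 5 members, Lcn2, Osmr, Cd44, S1pr3 and Timp1, and in 35.7% of promoters, and the TATA box TATAAA in Vim, Steap4 and Cp, and in 13.6%. Serpina3n had none of the 4 motifs in the window. These matches describe letters in a window, and binding was not measured here.

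The labels were first checked on Hdac1 and Thy1. In hippocampus Hdac1 averaged 7.93 ± 2.20 FPKM (SD, n = 4) in the controls against 2.74 ± 0.279 FPKM (n = 5) in Hdac1 cKO mice, with every Hdac1 cKO mouse below every control (limma adjusted p = 0.0236). It was at 1.92 ± 0.516 FPKM (n = 5) in compound mice. Whether the sequenced 3′ ends of Hdac1 lie inside the deleted part was not examined. Thy1, whose promoter is in the transgenes, was at 303 to 315 FPKM in control, 320 to 388 in Hdac1 cKO and 1563 to 2357 in the mice with 5XFAD. Hdac1 in the GFAP+ nuclei was lower on average in Hdac1 cKO (8.95 ± 2.40 FPKM, n = 4) than in control (15.5 ± 6.25 FPKM, n = 3), but the groups overlapped (limma adjusted p = 0.984). FPKM scales the fragments of a gene to transcript length and library size. Relative depth, recovered from the step that 1 fragment makes, spanned 0.754 to 2.35 in hippocampus and 0.869 to 1.26 in the nuclei. Choroid plexus, the secretory tissue of the ventricles, entered the hippocampal libraries unevenly. The summed FPKM of its 10 markers ran from 594 to 20524 in control, 61.0 to 1637 in Hdac1 cKO, 57.7 to 8021 in 5XFAD and 63.3 to 14085 in compound mice.

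Gfap, Serpina3n and Osmr were higher with 5XFAD both with and without Hdac1, and these calls held with any 1 mouse left out of either comparison. The calls of Vim in both comparisons and of Cd44 in compound against Hdac1 cKO mice did not. With the replicate numbers of the labels as a block, Gfap still passed in compound against Hdac1 cKO mice, while Serpina3n and Osmr did not. In 5XFAD against control the call of Osmr was also lost under an alternative setting (highest limma adjusted p = 0.0940). Of the 10 members, Gfap, Vim, Serpina3n and Osmr were higher in 5XFAD than in control mice, and Gfap, Vim, Serpina3n, Osmr and Cd44 were higher in compound than in Hdac1 cKO mice. Timp1 in the first comparison and Lcn2 in the second also passed the test, but both entered it only through the group where they are high, since the other group was under the filter on low values. Between mice with and without Nestin-Cre no member passed an adjusted p of 0.05 in hippocampus without 5XFAD, in hippocampus with 5XFAD or in GFAP+ nuclei, where the lower level of Hdac1 itself did not pass. Fold changes below were computed on log2(FPKM + 1) with limma, which draws low genes towards no change, and p-values were adjusted over all genes tested by Benjamini-Hochberg. Levels of different genes are not compared in hippocampus, because fragments from 3′ ends do not grow with transcript length. Bulk hippocampus cannot tell more cells of a type from more RNA per cell.

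**Figure D1:**
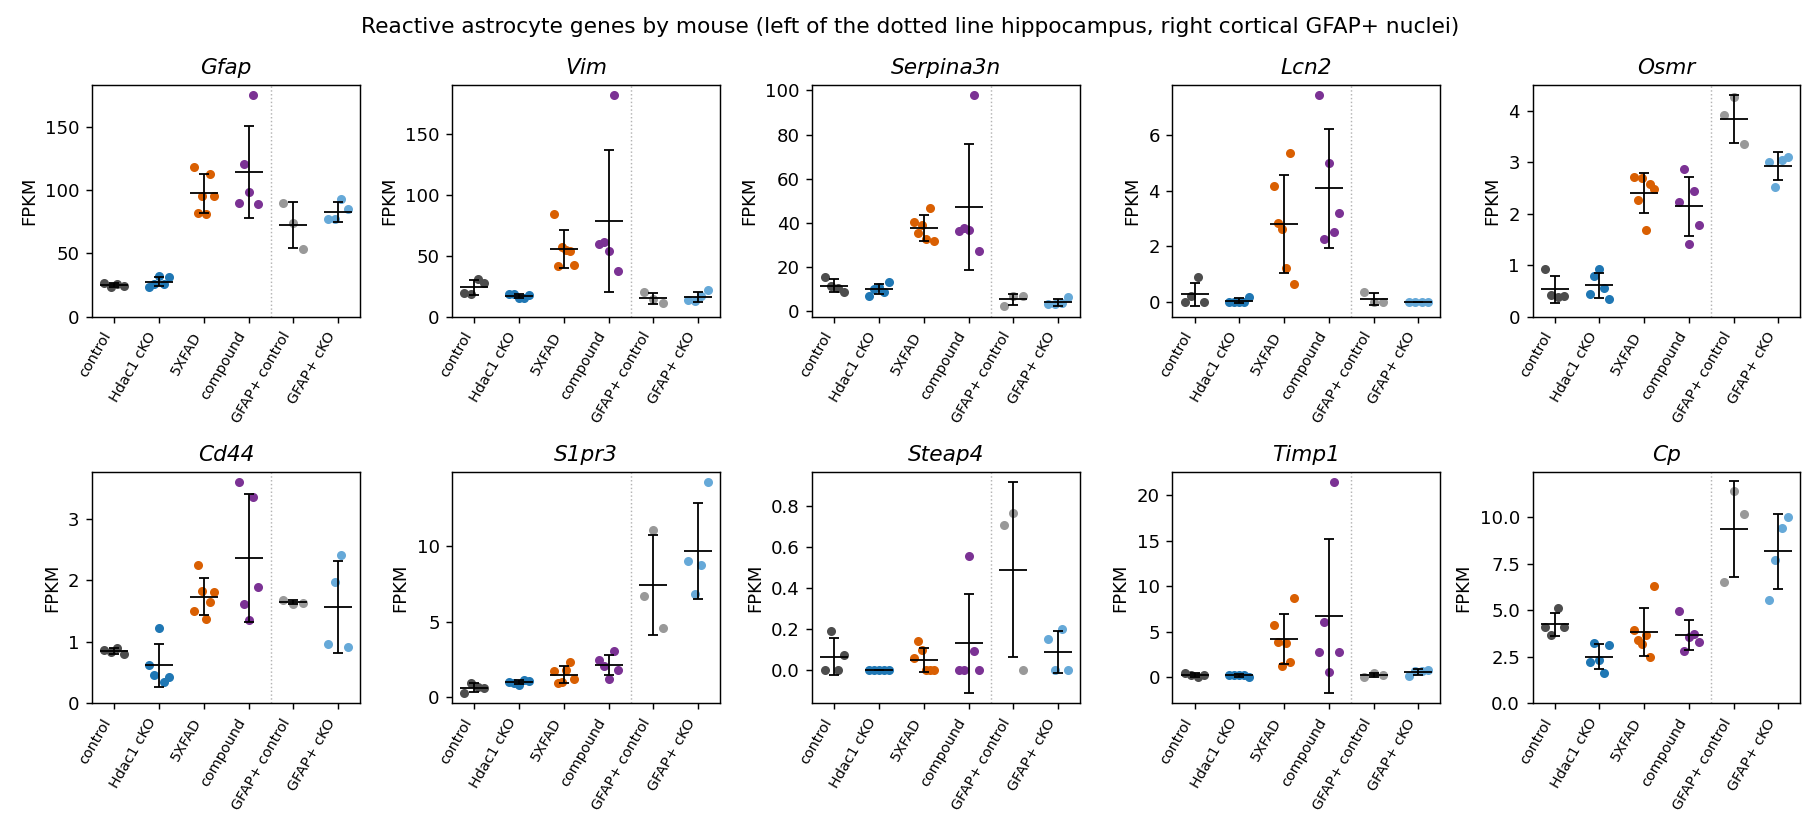
Each panel shows 1 gene, with FPKM on a linear vertical axis, 1 point per mouse in the 4 hippocampal groups and the 2 groups of GFAP+ nuclei, and bars for the mean ± SD. Gfap lay between 23.4 and 31.96 FPKM in the 9 mice without 5XFAD and between 81.3 and 176 FPKM in the 11 mice with it, and compound mouse 4 is the highest point for Gfap, Vim, Serpina3n, S1pr3 and Timp1 in hippocampus.

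Gfap encodes the glial fibrillary acidic protein, the filament subunit by which astrocytes are stained (mm9 chr11:102748650-102762226, minus strand). It was at 26.6, 23.5, 26.0 and 24.5 FPKM in the 4 control mice. The 5 Hdac1 cKO mice had 23.4, 26.2, 31.96, 25.8 and 31.3 FPKM. These ranges overlapped, and the difference of 0.13 ± 0.11 (log2 ± SE) was within the spread of the mice (limma adjusted p = 0.704). In 5XFAD mice Gfap ran from 81.3 to 118 FPKM with a median of 95.2, and in compound mice it was at 89.8, 120.4, 98.6, 176 and 89.0 FPKM. Every mouse with 5XFAD was above every mouse without it. The log2 fold change was 1.90 ± 0.12 for 5XFAD against control, a fold of 3.73 (95% CI 3.14 to 4.44) on the FPKM + 1 scale (limma adjusted p = 1.86e-06). It was 1.97 ± 0.17 for compound against Hdac1 cKO (limma adjusted p = 4.49e-05). Compound and 5XFAD mice overlapped, with a difference of 0.20 and a 95% CI from -0.16 to 0.56 (limma adjusted p = 0.828).

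Vim encodes vimentin, the filament protein that reactive and immature astrocytes add to GFAP and that vascular and microglial cells also carry (mm9 chr2:13495554-13504453, plus strand). It was at 19.6, 18.6, 31.0 and 27.6 FPKM in control and at 18.6, 18.6, 15.6, 15.5 and 18.0 FPKM in Hdac1 cKO mice. The Hdac1 cKO values sat at the level of the lowest control or below it, but a log2 difference of -0.43 ± 0.15 did not pass the test (limma adjusted p = 0.268). In 5XFAD mice Vim ran from 41.2 to 83.9 FPKM with a median of 54.4. Each was above every control mouse, with a log2 fold change of 1.16 ± 0.20 (limma adjusted p = 0.0152), a call that was lost without control mouse 1 or 2 (limma adjusted p = 0.0529 and 0.0576) and with a score of choroid plexus marker genes as a covariate (0.0608) or all hippocampal groups in one fit (0.0942). The compound mice had 59.2, 60.9, 53.9, 181 and 37.4 FPKM. Mouse 4 stood far above the others, and Vim was 1.90 ± 0.35 higher on the log2 scale in compound than in Hdac1 cKO mice (limma adjusted p = 0.0309). Without compound mouse 4 that value was 1.54. Against control the compound mice did not pass, although all 5 were above all 4 (log2 fold change 1.46 ± 0.42, limma adjusted p = 0.247).

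The secreted members include Serpina3n, a serine protease inhibitor of the acute-phase response (mm9 chr12:105644939-105652539, plus strand). It was at 15.5, 11.5, 10.5 and 8.67 FPKM in control and at 7.15, 9.95, 11.1, 8.56 and 13.4 FPKM in Hdac1 cKO mice. These groups overlapped (log2 difference -0.18 ± 0.18, limma adjusted p = 0.760). In 5XFAD mice it ran from 31.6 to 46.9 FPKM with a median of 37.2. That was a log2 fold change of 1.64 ± 0.15, with no overlap with control (limma adjusted p = 7.16e-05). Compound mice had 36.2, 37.8, 37.0, 97.7 and 27.2 FPKM. They were 2.00 ± 0.30 above Hdac1 cKO mice on the log2 scale (limma adjusted p = 0.00644), a call that was lost with the replicate block. Between compound and 5XFAD mice the log2 difference of 0.18 (95% CI -0.39 to 0.74) was within their spread.

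Lcn2 encodes lipocalin 2, a secreted carrier of iron-binding siderophores (mm9 chr2:32240153-32243317, minus strand), and Timp1 an inhibitor of matrix metalloproteinases (mm9 chrX:20447292-20451861, plus strand). Both were near 0 in hippocampus without 5XFAD. Their FPKM values were whole multiples of a step to within 0.00671 of a step, which gave the number of fragments behind each value if the step is 1 fragment. Lcn2 had 0, 1, 2 and 0 fragments in the 4 control mice and 1 fragment in all in the 5 Hdac1 cKO mice. In 5XFAD mice it had between 3 and 21 fragments, from 0.639 to 5.34 FPKM with a median of 2.74. Compound mice had 15, 5, 8, 12 and 11 fragments, or 7.42, 2.28, 5.01, 2.53 and 3.19 FPKM. The lowest 5XFAD mouse lay within the control range, whereas every compound mouse was above every mouse without 5XFAD.

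Timp1 had between 0 and 1 fragments in each control and Hdac1 cKO mouse, 3 in all in control and 4 in all in Hdac1 cKO. In 5XFAD mice it had between 3 and 43 fragments and ran from 1.25 to 8.70 FPKM with a median of 3.85. The compound mice had 6, 14, 1, 107 and 10 fragments, or 2.82, 6.07, 0.595, 21.4 and 2.76 FPKM. All mice with 5XFAD were above all without it, but compound mouse 3 rested on 1 fragment and mouse 4 held 107 of the group's 138. The 5XFAD to control ratio of fragments per unit of depth was 19.5 (95% exact interval 6.48 to 96.0) for Timp1 and 11.3 (3.67 to 56.2) for Lcn2, and these intervals cover counting error only. With limma, Timp1 passed in 5XFAD against control (log2 fold change 1.90 ± 0.35, adjusted p = 0.0254) and Lcn2 did not (1.48 ± 0.35, adjusted p = 0.104). Lcn2 passed in compound against Hdac1 cKO (2.20 ± 0.24, limma adjusted p = 2.56e-04) and Timp1 did not (2.09 ± 0.58, limma adjusted p = 0.158). Both genes entered the 5XFAD comparisons only through the mice with 5XFAD, since the others were under the filter of 0.5 FPKM.

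**Figure D2:**
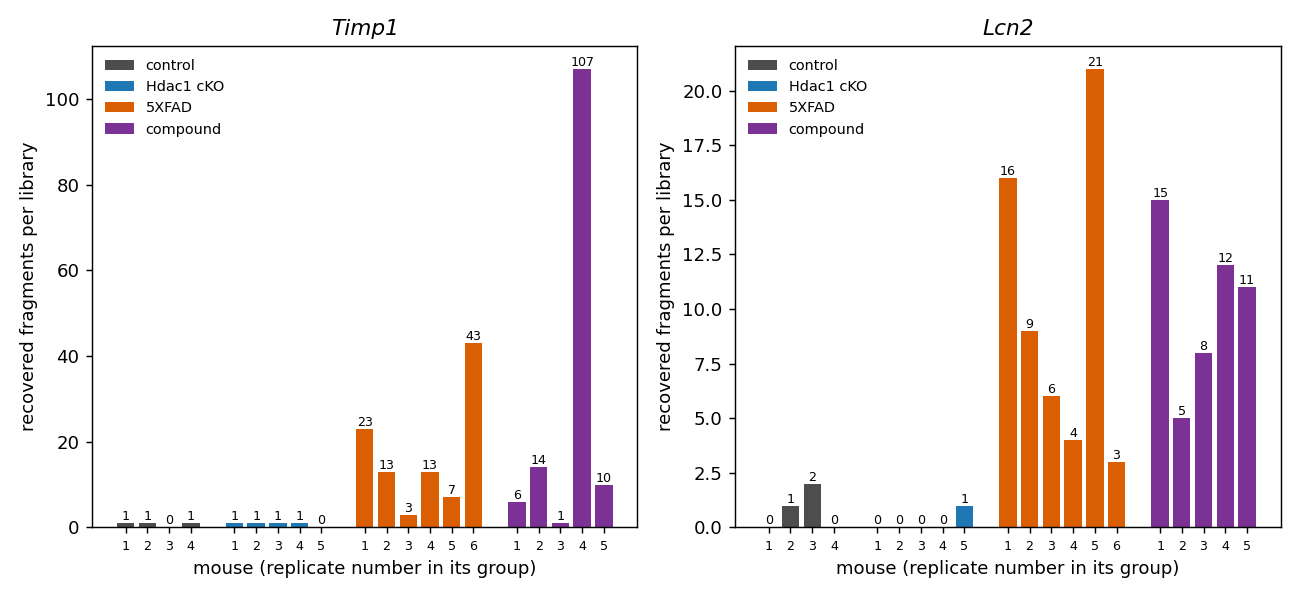
Bars give the fragments recovered for Timp1 and Lcn2 in each hippocampal library, on linear axes from 0 and not corrected for depth, with colours for the 4 groups. Mice without 5XFAD had at most 2 fragments of either gene, and compound mouse 4 held 107 fragments of Timp1 but 12 of Lcn2.

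Cp encodes ceruloplasmin, a copper-carrying ferroxidase (mm9 chr3:19857054-19909145, plus strand), and it did not follow the other secreted members. It was at 4.13, 3.68, 5.11 and 4.08 FPKM in control and at 2.23, 3.24, 2.31, 1.64 and 3.12 FPKM in Hdac1 cKO mice. Every Hdac1 cKO mouse was below every control, as for 2.15% of the genes tested, and the log2 difference of -0.60 ± 0.17 passed the fold and p thresholds of the study but not the adjusted one (limma adjusted p = 0.199). Cp no longer passed the study thresholds under quantile normalization or median scaling, or without control mouse 3 or Hdac1 cKO mouse 1, 3 or 4. In 5XFAD mice it ran from 2.49 to 6.31 FPKM with a median of 3.54, and compound mice had 4.99, 2.83, 3.58, 3.75 and 3.32 FPKM. Neither group was separated from control (log2 difference -0.15 ± 0.19 and -0.17 ± 0.16). For Cp the interaction term of Hdac1 loss with 5XFAD was 0.58 ± 0.25 (limma adjusted p = 0.523). Cp is abundant in choroid plexus, and all 10 choroid plexus markers, all 6 ependymal markers and 3 of 6 tested fibroblast markers were lower in Hdac1 cKO than in control mice by the study thresholds, which 3.36% of all genes tested passed in either direction. With the choroid plexus marker score as a covariate the Cp difference was -0.41 (limma adjusted p = 0.733). The part of these cells in the Cp values was not tested further.

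The surface members include Osmr, the receptor subunit for the IL-6 family cytokine oncostatin M (mm9 chr15:6763577-6824313, minus strand). It was at 0.927, 0.423, 0.376 and 0.406 FPKM in control and at 0.440, 0.784, 0.924, 0.5676 and 0.338 FPKM in Hdac1 cKO mice, with full overlap (log2 difference 0.07 ± 0.18). In 5XFAD mice it ran from 1.68 to 2.72 FPKM with a median of 2.53. Compound mice had 2.22, 2.88, 1.41, 2.45 and 1.79 FPKM. Every mouse with 5XFAD was above every mouse without it, by 1.16 ± 0.16 on the log2 scale in 5XFAD against control (limma adjusted p = 0.00263) and by 0.96 ± 0.18 in compound against Hdac1 cKO (limma adjusted p = 0.0119). Across the alternatives other than leaving out 1 mouse, the limma adjusted p of Osmr reached 0.0940 in 5XFAD against control. It reached 0.0505 in compound against Hdac1 cKO mice. Compound and 5XFAD mice differed by -0.12 (95% CI -0.46 to 0.21), within their spread. Osmr and Cp were the tested members with a lower mean in compound than in 5XFAD mice.

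Cd44, the hyaluronan receptor that binds extracellular matrix (mm9 chr2:102651298-102741822, minus strand), was at 0.876, 0.833, 0.898 and 0.796 FPKM in control. The Hdac1 cKO mice had 0.631, 0.454, 1.22, 0.352 and 0.434 FPKM. All of these values but that of mouse 3 lay below every control (log2 difference -0.22 ± 0.18, limma adjusted p = 0.698). In 5XFAD mice Cd44 ran from 1.38 to 2.25 FPKM with a median of 1.73, and compound mice had 3.60, 1.62, 1.36, 3.36 and 1.89 FPKM. Each mouse with 5XFAD was above each without it. The difference passed in compound against Hdac1 cKO (log2 fold change 1.03 ± 0.22, limma adjusted p = 0.0358) and not in 5XFAD against control (0.56 ± 0.14, limma adjusted p = 0.141). The call in compound against Hdac1 cKO did not hold with every choice of 1 mouse left out.

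S1pr3 encodes a receptor for sphingosine-1-phosphate (mm9 chr13:51503987-51518166, plus strand). It was at 0.287, 0.948, 0.678 and 0.635 FPKM in control and at 1.00, 0.937, 0.840, 1.15 and 1.10 FPKM in Hdac1 cKO mice. All but 2 of the Hdac1 cKO mice were above the highest control (log2 difference 0.31 ± 0.17, limma adjusted p = 0.512). In 5XFAD mice it ran from 0.961 to 2.32 FPKM with a median of 1.47, and compound mice had 2.48, 2.08, 1.24, 3.04 and 1.81 FPKM. The 5XFAD mice were above the controls (0.60 ± 0.20) and the compound mice above the Hdac1 cKO mice (0.62 ± 0.17), and both differences passed the study thresholds but not the adjusted one (limma adjusted p = 0.282 and 0.127). S1pr3 gave the same order of group means as Gfap, from control through Hdac1 cKO and 5XFAD to compound.

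Steap4, a metalloreductase of the cell surface and endosomes (mm9 chr5:7960472-7982213, plus strand), was hardly detected in hippocampus. It had 5 fragments in all in control, 0 in Hdac1 cKO, 4 in 5XFAD and 6 in compound mice. Its highest value was 0.554 FPKM, from 4 fragments in compound mouse 3. It was under the filter in every limma comparison, exact permutation tests between pairs of hippocampal groups gave p from 0.167 to 0.802, and with 0 fragments a library still allowed 3 fragments, or between 0.133 and 0.329 FPKM depending on its depth. In GFAP+ nuclei Steap4 was at 0.705, 0.765 and 0 FPKM in control and at 0.150, 0, 0.198 and 0 FPKM in Hdac1 cKO. These groups overlapped, and an exact permutation test gave p = 0.171.

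The order of the group means was taken for each member, with two-sided exact permutation tests of neighbouring groups and no adjustment. Mice without 5XFAD came before mice with it for every member but Cp and Steap4. For Gfap the step from Hdac1 cKO to 5XFAD gave p = 0.00216 in the exact test, the smallest these group sizes allow, while control and Hdac1 cKO (exact p = 0.302) and 5XFAD and compound (exact p = 0.368) did not differ beyond their spread. For Vim, Serpina3n and Cd44 the order ran from Hdac1 cKO through control and 5XFAD to compound, with an exact p of 0.00476 for the step from control to 5XFAD, again the smallest possible. The step from Hdac1 cKO to control gave an exact p of 0.0238 for Vim, 0.413 for Serpina3n and 0.175 for Cd44. Lcn2 and Timp1 had the same order, with an exact p of 0.0143 and 0.00952 for the step from control to 5XFAD. S1pr3 had its steps spread out, with an exact p of 0.0238 from control to Hdac1 cKO, 0.0866 from Hdac1 cKO to 5XFAD and 0.119 from 5XFAD to compound. Osmr ran from control through Hdac1 cKO and compound to 5XFAD, with an exact p of 0.667, 0.00794 and 0.381 for its steps. Cp was ordered from Hdac1 cKO through compound and 5XFAD to control, and only its first step had an exact p under 0.05 (0.0317).

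Counted over the list, 5 of 10 members were higher in 5XFAD than in control mice by adjusted p, beside 0.667% of the 14402 genes tested, and 7 by the study thresholds of a 1.5-fold change and an unadjusted p under 0.05, beside 1.72%. None was lower by either rule. Restricted to the 7 members at 0.5 FPKM or more in both groups, 4 passed by adjusted p and 5 by the study thresholds. Vim and Timp1 were close to the limit, since neither passed with the choroid plexus score as a covariate or without control mouse 1 or 2, which left 3 members, and the limma adjusted p of Timp1 ran from 0.00561 to 0.0961 with single mice left out. The median log2 fold change was 1.16 over the 7 members measurable in both groups and -0.01 over all genes tested. For 7 members the 6 5XFAD mice all lay above the 4 controls, as they did for 1.92% of the genes tested. These 7 include Timp1, which entered only through the 5XFAD mice.

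Compound and Hdac1 cKO mice share no mouse with the previous comparison but have the same split of age labels and sample numbers. Between them 6 members were higher in compound mice by adjusted p (1.42% of genes tested were higher) and 8 by the study thresholds (2.94%). Restricted to members measurable in both groups, the counts were 5 and 6 of 7. With single mice left out, the limma adjusted p ran from 8.89e-05 to 0.0964 for Vim and from 0.0212 to 0.103 for Cd44, and it stayed under 0.05 for Gfap, Serpina3n, Lcn2 and Osmr. Only Cp, of the 9 tested, did not pass the study thresholds. The median log2 fold change was 1.03 over the 7 members measurable in both groups and -0.01 over all genes tested. In compound against control mice, which reuses mice of both comparisons, Gfap, Serpina3n, Lcn2 and Osmr were higher by adjusted p (0.627%), and 8 members by the study thresholds (2.22%). Restricted to members measurable in both groups, the counts there were 3 and 6 of 7. With compound mouse 4 left out, Vim passed too (limma adjusted p = 0.0346) and Osmr did not (limma adjusted p = 0.104). Without control mouse 4 only Gfap passed in that comparison, and the limma adjusted p was 0.157 for Serpina3n, 0.0502 for Lcn2 and 0.128 for Osmr.

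**Figure D3:**
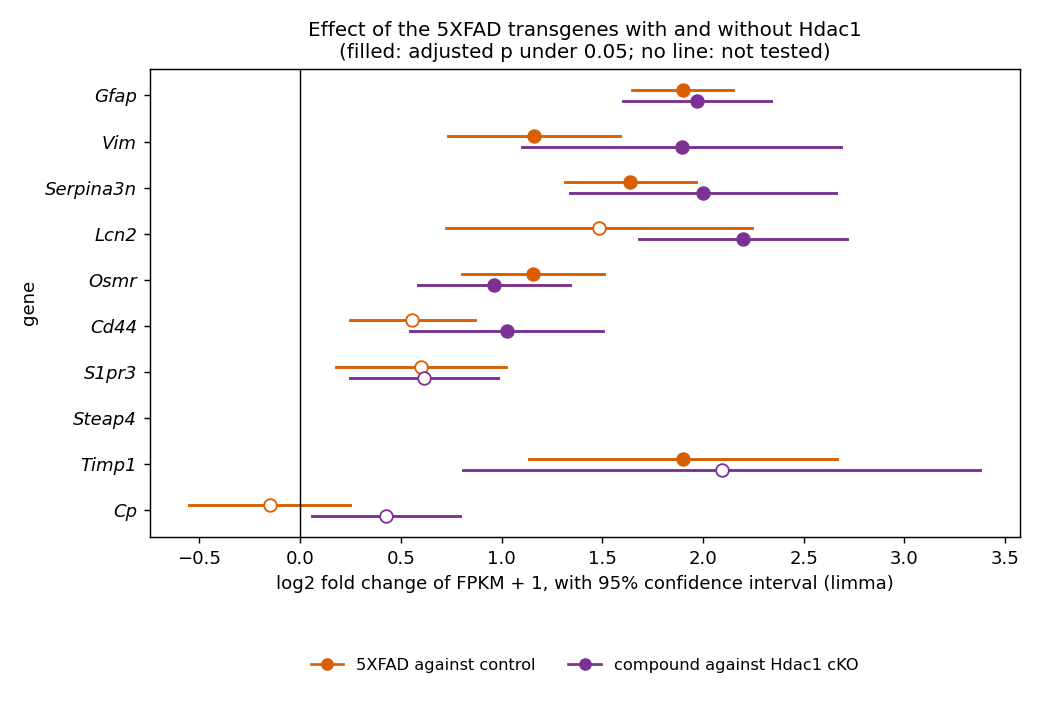
Points are log2 fold changes of FPKM + 1 with 95% confidence intervals from limma for 5XFAD against control and compound against Hdac1 cKO, 1 row per gene, filled where the adjusted p was under 0.05. Gfap is at 1.90 and 1.97, and Cp is the gene closest to 0 in both comparisons, at -0.15 and 0.43.

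Hdac1 loss was compared in 3 settings. In hippocampus without 5XFAD, 0 of the 7 members tested passed by adjusted p (limma, 0.154% of 14265 genes) and 1, Cp, by the study thresholds (3.36%). At an unadjusted p under 0.05 there were 2, Vim and Cp, both lower in Hdac1 cKO, beside 11.7% of the genes tested. In compound against 5XFAD mice 0 of 9 members passed by adjusted p (0.00698% of genes), by the study thresholds (1.28%) or at an unadjusted p under 0.05. The members' intervals were widest for Timp1, from -1.26 to 1.597 on the log2 scale, and narrowest for Osmr, and a change of the size estimated for 5XFAD against control lay outside the interval for Gfap, Vim, Serpina3n, Lcn2, Osmr and Timp1 and inside it for Cd44 and S1pr3. The size estimated for compound against Hdac1 cKO lay outside it for Cd44 as well and inside it for S1pr3. Without compound mouse 4 the log2 differences of Vim, Serpina3n and Timp1 turned from 0.30, 0.18 and 0.17 to -0.056, -0.12 and -0.36.

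The interaction asked whether the 5XFAD effect differed with and without Hdac1, over all 20 hippocampal mice. By adjusted p 0 of 9 members passed (limma, 0% of 14389 genes), and 0 passed the study thresholds (4.07%). At an unadjusted p under 0.05 only Cp did, beside 8.97% of genes. The estimates were positive for 8 of 9 members, beside 7318 of the 14389 genes tested. The positive ones ran from 0.02 for S1pr3 to 0.74 ± 0.42 for Vim, and Osmr was at -0.19 ± 0.23. The signs of S1pr3, Timp1 and Gfap turned under an alternative setting. The interval for Gfap ran from -0.38 to 0.52 on the log2 scale and that for Vim from -0.15 to 1.63.

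GFAP+ nuclei were sorted from frozen cortex with a GFAP antibody, so the level of Gfap there partly reflects the sort. They were normalized apart from the hippocampal libraries, and the tables were not tested against each other. Astrocyte markers led in these libraries, with a summed FPKM of 3291 to 4037 over 10 genes, beside 236 to 349 for 10 neuronal and 47.7 to 104 for 10 microglial markers. None of these markers was at 0 throughout a group. Oligodendrocyte markers summed to 461 to 1261. Gfap was at 90.2, 73.8 and 53.9 FPKM in control and at 77.1, 76.9, 93.5 and 84.9 FPKM in Hdac1 cKO nuclei. These groups overlapped, with a log2 difference of 0.22 (95% CI -0.18 to 0.62).

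Of the 10 members 7 were tested in the nuclei. None passed by adjusted p (limma, 0.0133% of 15070 genes), by the study thresholds (2.58%) or at an unadjusted p under 0.05. Osmr was the only member without overlap, at 3.92, 4.27 and 3.36 FPKM in control and 3.02, 2.52, 3.05 and 3.11 FPKM in Hdac1 cKO (log2 difference -0.30 ± 0.20, limma adjusted p = 0.984), where 2.75% of genes tested had all Hdac1 cKO libraries below all controls. An exact permutation test gave p = 0.0286 for Osmr, the smallest p that 3 against 4 libraries allow. S1pr3 was at 6.71, 11.05 and 4.55 FPKM in control and 9.02, 6.81, 8.72 and 14.2 FPKM in Hdac1 cKO, and Cp at 6.50, 11.4 and 10.2 FPKM and at 5.53, 7.70, 9.42 and 9.99 FPKM. Both overlapped. Vim ran from 11.4 to 21.6, Serpina3n from 2.33 to 6.93 and Cd44 from 0.918 to 2.42 FPKM over the 7 libraries, also with overlap. Timp1 had 0, 3 and 1 fragments in control and 1, 4, 5 and 5 in Hdac1 cKO nuclei, and Lcn2 was listed at 0 in all but 1 control.

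**Figure D4:**
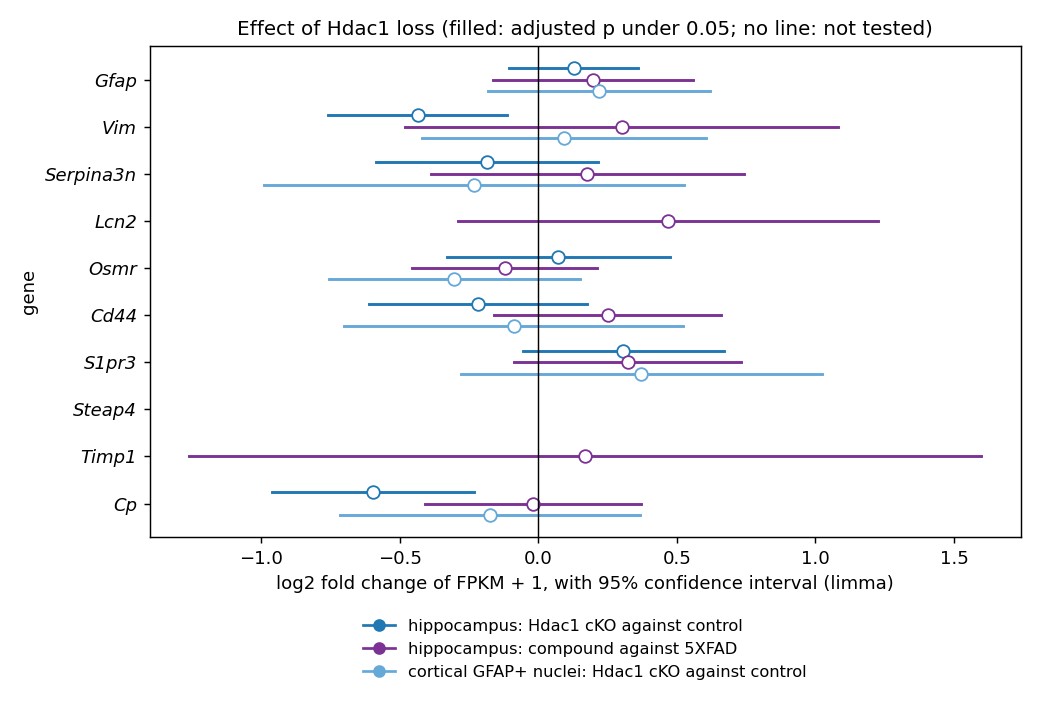
Points are log2 fold changes of FPKM + 1 with 95% confidence intervals from limma for 3 comparisons of Hdac1 loss, 1 row per gene, and no point is filled because no adjusted p was under 0.05. The intervals of Vim and Cp in hippocampus without 5XFAD are those that leave out 0, with estimates of -0.43 and -0.60.

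Compound mouse 4 stood above the other compound mice for 5 members. It had 176 FPKM of Gfap against 89.0 to 120.4 in the others, 181 of Vim against 37.4 to 60.9, and 97.7 of Serpina3n against 27.2 to 37.8. It was within the range of the others for Lcn2, Osmr, Cd44, Steap4 and Cp. Its microglial markers summed to 2097 FPKM, where the other mice with 5XFAD had 756 to 1526, and its oligodendrocyte marker score, the mean log2(FPKM + 1) of 8 genes, was 7.01 where the medians of the 4 groups lay between 6.24 and 6.46. Its relative depth was 2.24, the second highest in hippocampus. What these values contribute to its member levels was not tested.

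Within the groups, Serpina3n followed Gfap from mouse to mouse. After removal of group means, Pearson's r was 0.853 (permutation p = 6.00e-05, adjusted p = 0.00294 over 49 relations) and Spearman's rho 0.770 (permutation p = 1.70e-04, adjusted p = 0.00833) over 20 hippocampal mice. Without the 2 mice farthest from the median of Gfap, 5XFAD mouse 1 and compound mouse 4, r was 0.738. No other of the relations passed the adjustment. For Vim with Gfap r was 0.749 (permutation p = 0.0102, adjusted p = 0.151) and fell to 0.383 without the same mice. Among the 8266 genes that averaged 5 FPKM or more, Serpina3n was the gene most like Gfap by this r, followed by Mpeg1 (0.850), C4b (0.836), Thy1 (0.796) and Ctss (0.789), and Vim stood in rank 8. The first place rested on compound mouse 4, without which r was 0.728 for Serpina3n and 0.782 for Mpeg1.

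**Figure D5:**
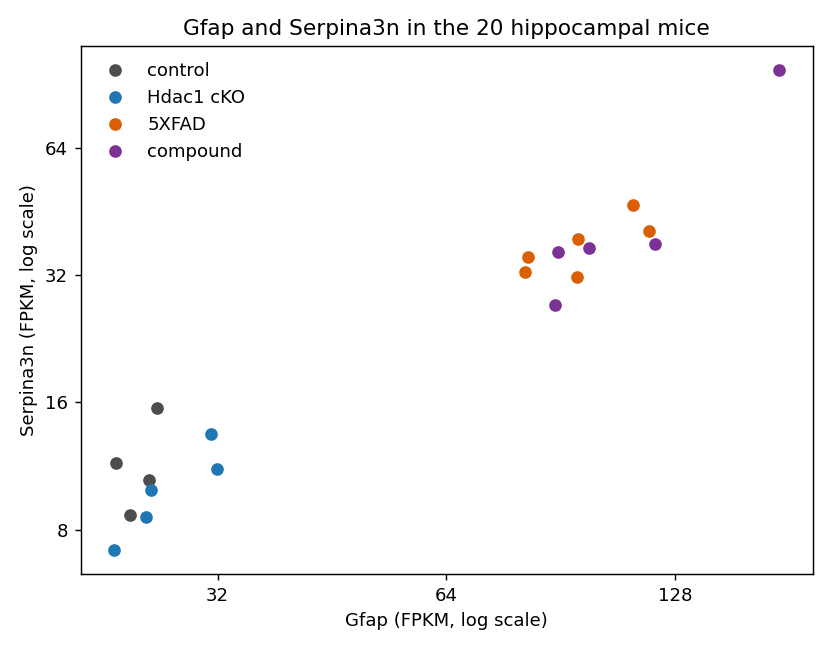
Each point is 1 hippocampal mouse, with Gfap on the horizontal and Serpina3n on the vertical axis, both in FPKM on log scales, and colours give the 4 groups. The mice without 5XFAD reach at most 15.5 FPKM of Serpina3n and those with it at least 27.2 FPKM, and compound mouse 4 is at the upper right with 176 and 97.7 FPKM.

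Other cell types moved with 5XFAD beside the members. Microglial markers summed to 287 to 373 FPKM in the 9 mice without 5XFAD and 756 to 2097 in the 11 with it, with none of the 10 markers at 0, and 6 of 10 were higher by adjusted p in 5XFAD against control, beside 0.667% of all genes. The 10 astrocyte markers that are not reactive genes summed to 1028 to 1131 FPKM in control and 1074 to 1246 in 5XFAD mice, and 0 of 10 passed by limma adjusted p or by the study thresholds and 1 at an unadjusted p under 0.05, beside 10.7% of all genes. In compound mice they summed to 1121 to 1268 FPKM, and their score, the mean log2(FPKM + 1), was 5.69 to 5.98 and above that of every control and Hdac1 cKO mouse (5.57 to 5.67). The score of the 5XFAD mice, 5.55 to 5.71, overlapped that of the compound mice. Estimates in compound mice were positive for 7 of the 10 markers against control and 8 against Hdac1 cKO, beside 6971 of 14348 and 6763 of 14195 genes tested. By adjusted p 1 of the 10 was higher in compound than in control mice (0.627% of all genes) and 1 in compound than in Hdac1 cKO mice (1.42%). The marker was Aqp4, the water channel of astrocyte endfeet, at a higher level in compound mice (56.4 ± 14.6 FPKM, n = 5) than in control (22.9 ± 1.40 FPKM, n = 4, limma adjusted p = 0.00317) and Hdac1 cKO mice (30.0 ± 2.14 FPKM, n = 5, limma adjusted p = 0.00680). In 5XFAD mice Aqp4 was at 29.4 ± 7.18 FPKM (n = 6). Every compound mouse was above every 5XFAD mouse, as for 0.391% of the genes tested, but the log2 difference of 0.91 ± 0.17 did not pass the test (limma adjusted p = 0.234). Between compound and 5XFAD mice 0 of the 10 astrocyte and 0 of the 10 microglial markers passed by limma adjusted p, while 2 (Aqp4 and Gja1) and 5 were higher at an unadjusted p under 0.05, beside 6.61% of all genes. The part of microglia and of astrocyte content in the rise of the members was not tested. Choroid plexus markers had a median log2 difference of -1.30 in 5XFAD against control, but 0 of 10 had an unadjusted limma p under 0.05. Of 6 ependymal markers 4 did (Ccdc153, Tmem212, Mia and Dynlrb2), beside 10.7% of all genes. All 4 had lower means in 5XFAD than in control mice.

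Other lists of reactive astrocyte genes were counted in the same fits. Of 3 further pan-reactive genes, Aspg, an asparaginase (log2 fold change 1.77), and the chemokine gene Cxcl10 (1.31) were higher in 5XFAD than in control mice by limma adjusted p, against which the 0.667% of all genes that were higher is to be read here and for the next lists. Aspg averaged 0.290 FPKM in control, under the filter of 0.5 FPKM, so it entered only through the 5XFAD mice. Of 10 tested genes of the list called A1, from inflammatory stimulation, 3 were higher, the immunoproteasome subunit Psmb8 (1.64), the class I gene H2-D1 (1.30) and Srgn (1.04). Of 7 tested genes of the list called A2, from ischaemia, only Cd14, a coreceptor for lipopolysaccharide, was higher (1.65). The medians were 0.67 for A1 and 0.22 for A2, beside -0.01 over all genes tested. Of 8 genes linked to astrocytes near amyloid, S100a6 (1.20), Gsn (0.93) and the cathepsin gene Ctsb (0.44) were higher. Of 10 tested genes of oncostatin M and STAT3 signalling 0 passed by adjusted p or by the study thresholds in 5XFAD against control, 2 of them (Stat3 and Junb) had an unadjusted limma p under 0.05, as did 10.7% of all genes, and their median was 0.10. In compound against Hdac1 cKO mice 1 of them, Stat3 itself, was higher (0.55 ± 0.12, limma adjusted p = 0.0340), beside 1.42% of all genes. Many genes of these lists are also expressed by microglia.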

How the data were processed

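The authors deposited FPKM values, 1 per gene and library. Per the study's methods, hippocampal 3′ digital gene expression reads were collapsed, aligned with Tophat2 and quantified with Cufflinks 2.0.0 on UCSC mm9. Nuclei were sorted with GFAP and NeuN antibodies and their libraries were full-length SMART-Seq. For the nuclei, 3 of the 4 control samples were used, and 6 ChIP samples and 1 nuclei sample were not analysed here.

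Genes averaging 0.5 FPKM or more in the compared libraries were tested with limma 3.58.1 (R 4.3.3, trend and robust) on log2(FPKM + 1), a pseudocount of 1, with Benjamini-Hochberg adjustment over all of them. The study's thresholds were a 1.5-fold change and p under 0.05, with the test not named. Two-sided exact permutation tests were used for single values, and correlations were tested with 100000 permutations within groups. Python 3.11.15 with scipy 1.17.1 was used. On simulated data with 200 genes changed by 1.5 on the log2 scale, the fit for 5XFAD against control recovered 95% and that for the nuclei 78%. The changed genes were drawn only from the better expressed ones, so these shares do not give the recovery for members with low FPKM.

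All 10 members are named in every comparison, Hdac1 and Thy1 as checks, up to 3 genes per further list and direction by adjusted p, and the 5 genes most like Gfap. Members and lists were chosen with earlier results of these data known. Gene positions are those of GENCODE on NCBIM37 (mm9). P-values measure the spread between mice. Alternatives were another pseudocount, filter, scaling and limma setting, a replicate block, a choroid plexus covariate, 1 fit over all 4 hippocampal groups and each mouse left out.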

Additional observations from a re-analysis of the deposited data

Results flagged for a closer look

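Within each group of 4 or more libraries, a value was marked when its gap to the nearest other value was a large part of the group's range by Dixon's criterion on the log2(FPKM + 1) scale. For normally distributed values chance meets it in about 1 of 20 groups. Values that rest on few fragments are not of that kind, so the number marked cannot be read against this share. Of 48 groups examined, 7 were marked. Serpina3n was at 97.7 FPKM in compound mouse 4, above the other 4 compound mice. Vim and Timp1 were also highest in that mouse but were not marked on this scale. Osmr was at 0.927 FPKM in control mouse 1, above the other controls, and at 2.52 FPKM in library 2 of the Hdac1 cKO nuclei, below the other libraries. The other marked values rest on few fragments. Lcn2 was at 0.201 FPKM in Hdac1 cKO mouse 5, from 1 fragment where the other Hdac1 cKO mice had 0. Steap4 was at 0.554 FPKM in compound mouse 3, from 4 fragments. Timp1 was at 0 in Hdac1 cKO mouse 5 and at 0.161 FPKM, from 1 fragment, in library 1 of the Hdac1 cKO nuclei.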

How the results depend on the processing

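Outside the settings that left out 1 mouse, 472 values kept their direction and side of the threshold, 19 no longer passed, 7 newly passed and 7 changed sign, and with 1 mouse left out the counts were 586, 38, 6 and 22. Except where a value below says so, the causes were not tested. Gfap stayed higher by adjusted p in the 5XFAD comparisons under every alternative that was run. The deviations of same-numbered mice correlated at most at 0.1002. Differently numbered mice were not compared, so these values cannot tell whether the replicate numbers of the labels pair the mice. With the replicate block, members higher by adjusted p went from 5 to 3 in 5XFAD against control, from 4 to 1 in compound against control and from 6 to 2 in compound against Hdac1 cKO, and 1 member passed the study thresholds in the interaction. With the choroid plexus score as a covariate the counts were 3 in 5XFAD against control and 2 in compound against control. With all 4 hippocampal groups in 1 fit, 7 members passed in compound against control. Under quantile normalization and median scaling 0 members passed the study thresholds in Hdac1 cKO against control, and with a pseudocount of 0.1 the interaction had 1.

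Signs changed with the choroid plexus covariate for Osmr in Hdac1 cKO against control (-0.40) and for Cp in compound against control (0.049) and compound against 5XFAD (0.14), where Cp was also at 0.00931 under quantile normalization and 0.11 with the replicate block. In the interaction S1pr3 was at -0.18 with a pseudocount of 0.1 and Gfap at -0.011 under quantile normalization.

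With each mouse left out in turn, members past the adjusted threshold ranged from 3 to 6 in 5XFAD against control, from 1 to 4 in compound against control and from 4 to 7 in compound against Hdac1 cKO. The count of 3 came without control mouse 1 or 2, when Vim and Timp1 no longer passed, the count of 1 without control mouse 4, and in the same comparison 2 passed without control mouse 2 or 3 or compound mouse 1 or 2. Members past the study thresholds ranged from 0 to 1 in Hdac1 cKO against control, 0 to 2 in the interaction and 0 to 1 in the nuclei. Cp was lost from the first without control mouse 3 or Hdac1 cKO mouse 1, 3 or 4, and 1 member passed in the nuclei without control library 1 or 3. Log2 differences crossed 0 in compound against 5XFAD for Cp (-0.11 to 0.11), Timp1 (-0.36 to 0.59), Vim (-0.056 to 0.51) and Serpina3n (-0.12 to 0.33), in the interaction for S1pr3 (-0.082 to 0.13), Timp1 (-0.34 to 0.62) and Gfap (-0.095 to 0.15), and in the nuclei for Vim (-0.084 to 0.30) and Cd44 (-0.24 to 0.037). Depth limited Lcn2 and Timp1, whose values outside the mice with 5XFAD rest on few or no fragments, and Steap4 in all of hippocampus.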
